A study of Mus musculus with 30 samples.

Results

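The genes described here are 30 targets of p53 read in differentiating mouse C2C12 cells exposed to chromate. They were chosen by name, as genes long known to be switched on by p53, and not by a rule on their values. Earlier results of these data were known when the list was made. All 30 were found by symbol among the 48709 genes listed. All 30 also passed the level filter (3 or more libraries with 1 scaled CPM or more), which 12946 genes passed in all. Scaled CPM are counts per library total after a further scaling per library by the authors. They are not divided by gene length, so levels are compared between samples and not between genes.

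The protein p53 is a transcription factor that MDM2, its ubiquitin ligase, keeps at a low level in unstressed cells. After DNA damage p53 builds up and binds paired half-sites near its targets, which serve to end the response (Mdm2, Ccng1), to halt division, to repair DNA, to adjust metabolism or to start cell death. Muscle precursors also leave the cell cycle when they differentiate, and some of the same genes are read in that process without damage. The libraries measure transcripts, and neither p53 protein nor its binding was measured.

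C2C12 is an established mouse myoblast line that fuses into muscle fibres when serum is lowered. The cells were moved to medium with 2% horse serum and sampled on days 1, 2 and 4, in that medium with or without potassium chromate, which supplies Cr(VI). The groups were 5 µM on days 1, 2 and 4, 2 µM on the same days, 0 µM (control) on the same days, and day 0 at 0 µM. Each of these 10 groups had 3 libraries, labelled as biological replicates with no word on separate cultures, so p-values measure the spread between these libraries. Whole reads recovered from the table came to 18.5 to 26.9 M per library. All 6 muscle line markers (Myod1, Myf5, Myog, Des, Cdh15 and Pax7) were above 0 in every library.

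A pair of day 1 libraries stood apart from the other 28. Replicate 1 of 2 µM (column S7) held a summed level of 3571 scaled CPM over 8 adipocyte markers, against 22.8 to 125 in the other 28. Nearly all of the sum in those 28 was Car3 (21.6 to 124). Fabp4 stood at 2529 in S7 and at most at 1.05 in every other library. Replicate 3 of 5 µM (column S12) held 384 scaled CPM over 8 lung epithelium markers and 314 over 7 leukocyte markers, against at most 0.941 and 1.42 in the other 28. Among the 3 libraries of 5 µM on day 1, S12 was highest for 9 of the 30 targets and lowest for 18, and those 18 held 10 of the 13 targets that rose there, Mdm2, Ccng1 and Bax included. S7 was highest of its group for 12 targets and lowest for 8. In S12, Pidd1 stood at 5.18 scaled CPM, against 0 and 0.614 in the other 5 µM libraries of day 1, and Perp at 2.77, against 0.896 and 0.859. In S7, Ddit4 stood at 61.4 scaled CPM, against 28.6 and 31.5 in the other 2 µM libraries of day 1, and Dcxr at 17.5, against 7.92 and 5.34. The part of these transcripts in those values was not tested, and the day 1 calls were also made without both libraries.

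Promoters of 24 of the 30 genes were in the RefSeq table (GRCm38.p6), each as 300 bases ending 50 bases after the start of the gene. A p53 half-site has 10 bases with a C and a G in its core, and a full site is a pair of adjoining half-sites, searched here with both cores kept and up to 2 mismatches elsewhere. Both motifs read alike on both strands. The half-site was found in 10 of 24 (41.7%), against 9.55% of 27025 genes in the table. A full site, which can contain half-site matches, was found in 3 of 24 (12.5%), against 0.392% of all genes. These 3 were Ccng1, Ckap2 and Gtse1, and their windows are shown because the same 3 genes took different courses at 5 µM. The windows of Mdm2 and Bax, each with 1 half-site, are shown beside them as the feedback gene and the death gene described on every day. Capitals mark the site, and each line runs 5′ to 3′ on the strand of the gene.
Ccng1: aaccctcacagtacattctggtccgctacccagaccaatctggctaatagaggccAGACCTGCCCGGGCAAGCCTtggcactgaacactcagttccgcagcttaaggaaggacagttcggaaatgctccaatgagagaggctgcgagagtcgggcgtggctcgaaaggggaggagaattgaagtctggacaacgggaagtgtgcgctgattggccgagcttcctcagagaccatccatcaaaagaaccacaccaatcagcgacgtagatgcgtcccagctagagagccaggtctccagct
Ckap2: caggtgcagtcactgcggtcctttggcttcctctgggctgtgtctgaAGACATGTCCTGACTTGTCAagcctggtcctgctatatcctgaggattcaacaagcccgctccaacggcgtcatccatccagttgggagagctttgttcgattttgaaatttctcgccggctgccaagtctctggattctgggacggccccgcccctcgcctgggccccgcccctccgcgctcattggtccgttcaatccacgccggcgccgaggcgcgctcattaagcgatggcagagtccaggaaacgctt
Gtse1: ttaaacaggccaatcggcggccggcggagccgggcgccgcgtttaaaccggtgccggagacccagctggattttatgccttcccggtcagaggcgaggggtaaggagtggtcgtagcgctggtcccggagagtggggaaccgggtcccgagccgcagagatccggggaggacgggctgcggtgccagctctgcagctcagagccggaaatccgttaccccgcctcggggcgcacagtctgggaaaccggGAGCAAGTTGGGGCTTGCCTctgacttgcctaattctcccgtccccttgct
Mdm2: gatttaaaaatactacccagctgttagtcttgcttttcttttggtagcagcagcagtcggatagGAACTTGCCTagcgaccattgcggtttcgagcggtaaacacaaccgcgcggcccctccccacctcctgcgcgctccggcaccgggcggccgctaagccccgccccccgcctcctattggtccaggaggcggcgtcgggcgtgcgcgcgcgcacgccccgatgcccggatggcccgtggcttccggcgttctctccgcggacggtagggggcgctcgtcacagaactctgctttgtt
Bax: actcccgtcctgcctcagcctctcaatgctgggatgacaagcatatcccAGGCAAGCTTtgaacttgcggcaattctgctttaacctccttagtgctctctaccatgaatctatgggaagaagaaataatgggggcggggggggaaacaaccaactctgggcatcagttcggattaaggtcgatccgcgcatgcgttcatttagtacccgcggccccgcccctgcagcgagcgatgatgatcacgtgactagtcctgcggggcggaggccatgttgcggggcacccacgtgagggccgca
The windows lie at chr11:40755237-40755536 (minus strand) for Ccng1, chr8:22185770-22186069 (minus) for Ckap2, chr15:85859696-85859995 (plus) for Gtse1, chr10:117710709-117711008 (minus) for Mdm2 and chr7:45466849-45467148 (minus) for Bax. Counted from the gene start, the full site begins at -195 in Ccng1 with 1 mismatch, at -203 in Ckap2 with 2 and at -1 in Gtse1 with 1. The half-site begins at -186 in Mdm2 and at -201 in Bax. A match describes these letters and does not show that p53 bound there.

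The p53 targets called at 5 µM moved mostly upward on day 1, in both directions on day 2 and more often up than down on day 4. The total called stood well above the share of all genes on day 1 and nearer to it on days 2 and 4. On day 1, 13 of 30 rose and 1 fell, where 4.29% of all tested genes rose and 9.41% fell (13.7% called). The median log2 change of the 30 was 0.39, against -0.01 over all tested genes. On day 2, 5 of 30 rose and 5 fell, beside 10.2% and 13.4% of all genes (23.7% called), and the median was 0.12. On day 4, 13 of 30 rose and 6 fell, beside 27.3% and 28.6% of all genes (55.8% called), and the median was 0.18. Calls are limma's, with p-values adjusted by the Benjamini-Hochberg method over all 12946 genes and a threshold of 0.05, and changes are on the log2(scaled CPM + 1) scale, which understates those of low genes. Without S7 and S12 the same 14 genes were called on day 1, with a median of 0.38. The log2 changes were then 0.79 for Mdm2, 0.73 for Ccng1, 0.64 for Bax (adjusted p = 0.0052), 0.77 for Aen and -0.53 for Pmaip1. On day 2 only 6 members were called, 3 in each direction, when control replicate 2 was left out.

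**Figure D1:**
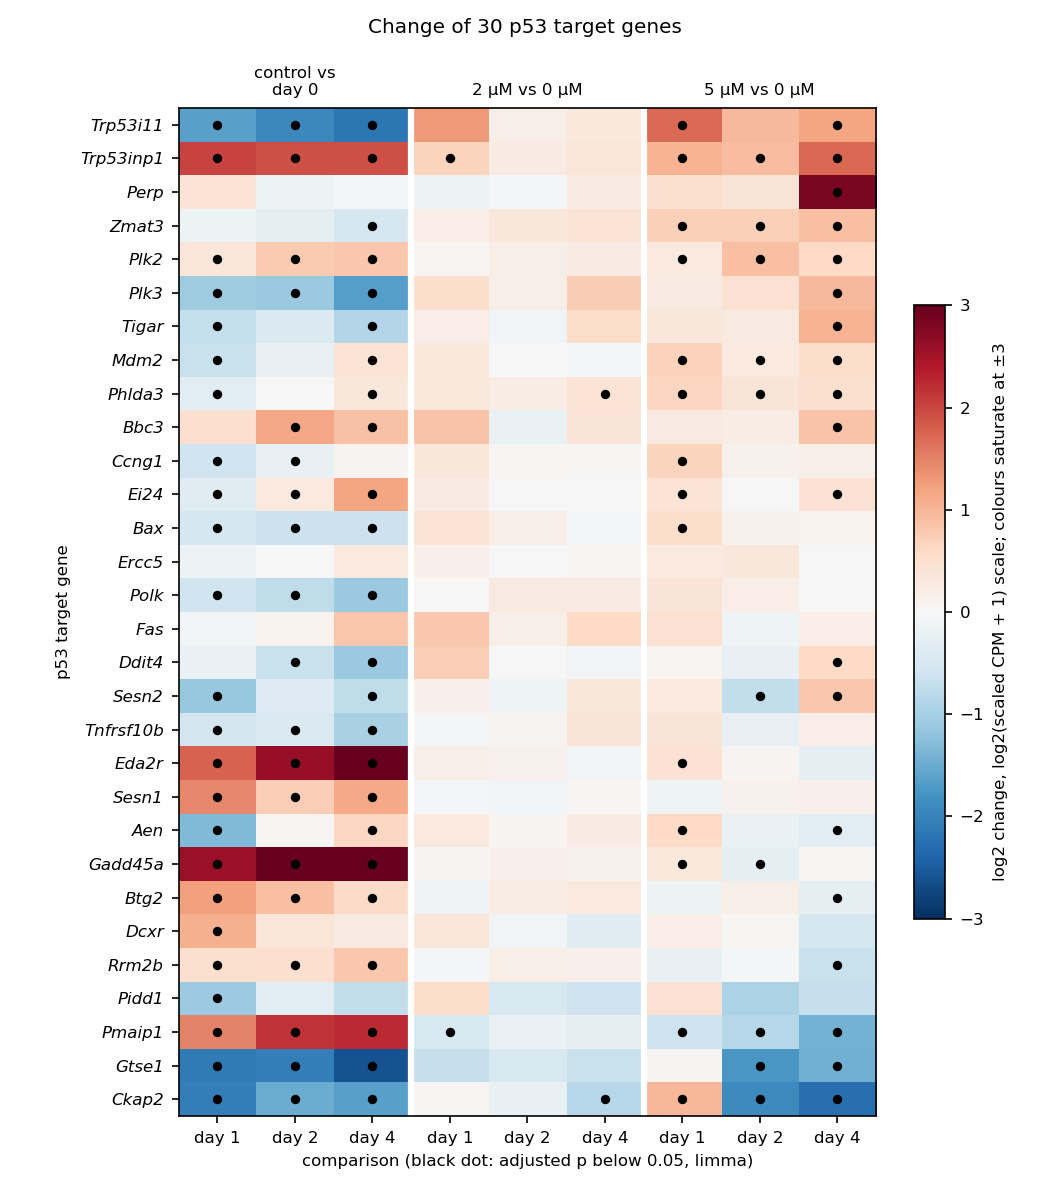
Log2 change of the 30 p53 targets (rows, ordered by their mean change at 5 µM) in control cells against day 0, at 2 µM against 0 µM and at 5 µM against 0 µM, on days 1, 2 and 4 (columns), with red for higher, blue for lower and a black dot for an adjusted p below 0.05. The 5 µM columns hold 14, 10 and 19 dots on days 1, 2 and 4, and the 2 µM columns 2, 0 and 2.

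Over the 3 days, 23 of the 30 targets were called at 5 µM on at least 1 day, beside 60.6% of all genes. Mdm2, Phlda3, Plk2, Trp53inp1 and Zmat3 rose on all 3 days, as 2.02% of all genes did, and Pmaip1 fell on all 3, as 5.14% did. Sesn2, Gadd45a, Aen and Ckap2 rose on 1 day or more and fell on another, beside 1.14% of all genes. Fas, Sesn1, Tnfrsf10b, Polk, Ercc5, Pidd1 and Dcxr were called on no day at either dose, and 39.4% of all genes were called on no day at 5 µM. The days share no control, since each day had its own 0 µM group.

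Among the genes that end or tune the p53 response, Mdm2 was higher at 5 µM on each day. On day 1 Mdm2 had 105, 114 and 90.3 scaled CPM at 5 µM, against 63.1, 55.4 and 71.7 in control. Its day 4 levels were 192, 189 and 199 scaled CPM at 5 µM, against 126, 141 and 137 in control. In both comparisons every 5 µM library lay above every control library, with log2 changes of 0.70 ± 0.10 (SE, adjusted p = 3.2e-06) on day 1 and 0.52 ± 0.10 (adjusted p = 3.9e-05) on day 4. On day 2 the change was 0.30 ± 0.10 (adjusted p = 0.027), with 116, 97.3 and 106 scaled CPM at 5 µM against 90.0, 86.6 and 82.6 in control. The day 2 groups did not overlap, but the call was lost without any 1 of 4 libraries (both groups' replicate 3, control replicate 2 and 5 µM replicate 1), with adjusted p of 0.062 to 0.15.

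Ccng1 encodes cyclin G1, which brings a phosphatase to MDM2 and is among the most regular p53 targets. It had 434, 395 and 359 scaled CPM at 5 µM on day 1, against 251, 258 and 241 in control, with no overlap and a log2 change of 0.66 ± 0.10 (adjusted p = 5.9e-06). On day 2 it had 366, 331 and 362 at 5 µM against 342, 343 and 283 in control, and on day 4 443, 439 and 463 against 438, 380.3 and 377. The day 2 groups overlapped (0.14, adjusted p = 0.35) and those of day 4 lay close together without overlap (0.17, adjusted p = 0.13). The effect on day 2 was smaller than on day 1 by a test of the difference itself (-0.52 ± 0.14, adjusted p = 0.016).

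Trp53inp1, a stress protein that raises p53 activity and takes part in autophagy, rose on each day. On day 1 it had 113, 116 and 110.1 scaled CPM at 5 µM, against 63.3, 49.4 and 49.7 in control. On day 2 the values were 99.8, 97 and 92.6 at 5 µM and 59.7, 54.2 and 39.4 in control. On day 4 they were 161, 159.9 and 186 at 5 µM and 54.3, 42.9 and 55 in control. No 5 µM library overlapped with control on any day, and the log2 changes were 1.05 ± 0.13, 0.92 ± 0.13 and 1.72 ± 0.13 on days 1, 2 and 4 (adjusted p = 2.4e-07, 1.3e-06 and 3.9e-13). The effect was larger on day 4 than on day 2 (0.80 ± 0.19, adjusted p = 0.0016).

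Zmat3, an RNA-binding protein that alters splicing of p53 pathway transcripts, changed by 0.71, 0.72 and 0.89 on days 1, 2 and 4. Its day 1 levels were 68.9, 87.6 and 71.2 scaled CPM at 5 µM and 47.4, 40.1 and 50.6 in control, and its day 2 levels 80.5, 61.4 and 64.7 at 5 µM and 47.5, 36.8 and 39.9 in control. On day 4 it had 63.6, 67.3 and 69.5 at 5 µM and 32.5, 32.3 and 42.7 in control. The groups did not overlap on any day (adjusted p = 0.00028, 0.00012 and 1.1e-06).

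Plk2, a stress-induced polo-like kinase, peaked on day 2 at 5 µM. It then had 271, 247 and 222 scaled CPM at 5 µM, against 128, 124 and 139.8 in control (0.91 ± 0.09, adjusted p = 2.6e-09), with a wide gap between the groups. Its change was 0.28 on day 1, where the groups overlapped (adjusted p = 0.039, and 0.12 to 0.24 without any 1 of control replicates 2 and 3 and 5 µM replicates 1 and 2), and 0.59 on day 4 (adjusted p = 2.5e-06). The effect of day 2 exceeded that of day 1 by 0.62 ± 0.13 (adjusted p = 0.0021). Phlda3, which blocks AKT at the membrane, changed by 0.64, 0.39 and 0.47 (adjusted p = 0.00025, 0.016 and 0.0012). On day 2 Phlda3 had 177, 152 and 176 scaled CPM at 5 µM and 123, 117 and 147 in control, without overlap, and the call was lost without any 1 of 4 libraries (control replicates 1 and 2, 5 µM replicates 1 and 3; adjusted p = 0.063 to 0.093).

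**Figure D2:**
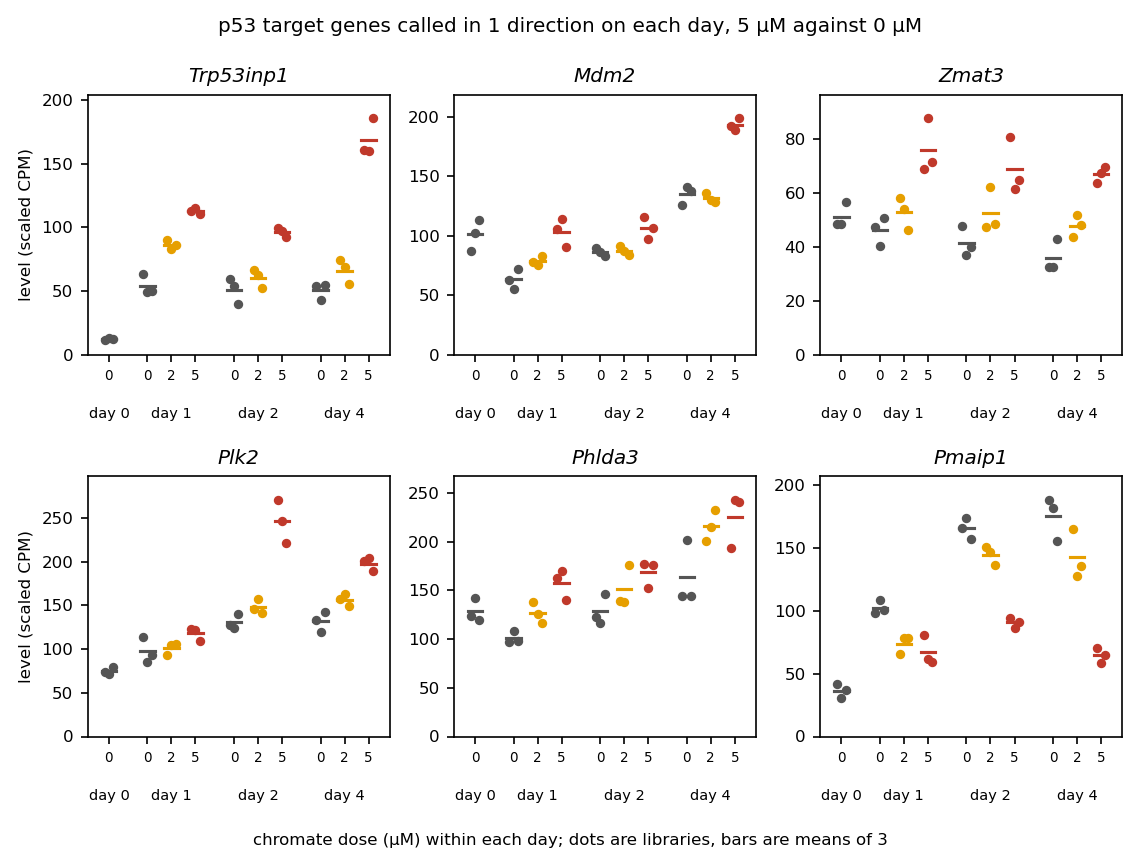
Level in scaled CPM (vertical axis, from 0) of the 6 p53 targets called in the same direction at 5 µM on each of days 1, 2 and 4, by day and by chromate dose in µM (horizontal axis), with dots for libraries and bars for means of 3. Trp53inp1, Mdm2, Zmat3, Plk2 and Phlda3 have their highest means at 5 µM on each of these days, and Pmaip1 its lowest.

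The death genes did not move as a block. Pmaip1, which encodes NOXA, a BH3-only protein that frees the death machinery by binding MCL1, fell on all 3 days. On day 1 it had 80.3, 61.8 and 58.9 scaled CPM at 5 µM, against 98, 109 and 101 in control. On day 2 it had 94.4, 86.2 and 91 at 5 µM, against 165, 174 and 157 in control, and on day 4 70.0, 58.1 and 64.9 against 188, 181 and 155. Every 5 µM library lay below every control library of its day, with log2 changes of -0.62 ± 0.12, -0.86 ± 0.12 and -1.43 ± 0.12 (adjusted p = 0.00022, 5.4e-07 and 1.8e-12). The fall was deeper on day 4 than on day 2 (-0.57 ± 0.16, adjusted p = 0.01).

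Bax, the protein that opens the outer mitochondrial membrane, rose on day 1, when it had 110.1, 96.9 and 79.9 scaled CPM at 5 µM, against 61.6, 78.6 and 59.1 in control. The lowest 5 µM library lay just above the highest control library, and the change of 0.52 ± 0.15 (adjusted p = 0.016) was no longer called without any 1 of 4 libraries (control replicates 1 and 3, 5 µM replicates 1 and 2; adjusted p = 0.051 to 0.10). Its groups overlapped on day 2 (55.9, 66.9 and 77.5 at 5 µM, 63.9, 55.4 and 63.7 in control) and on day 4 (50.6, 79.1 and 68.1 at 5 µM, 54.8, 71.4 and 56.7 in control). The changes there were 0.12 (adjusted p = 0.64) and 0.10 (adjusted p = 0.6, and -0.04 without 5 µM replicate 2). Bbc3, which encodes PUMA, another BH3-only protein, was called on day 4 with 10.4, 10.7 and 10.7 scaled CPM at 5 µM against 4.52, 7.19 and 4.73 in control (0.86 ± 0.32, adjusted p = 0.022). That call was lost without control replicate 1, control replicate 3 or 5 µM replicate 3 (adjusted p = 0.051 to 0.079).

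Perp, a membrane protein of cell junctions that p53 induces during apoptosis, had the largest day 4 rise of the set. It had 9.13, 6.42 and 8.35 scaled CPM at 5 µM on day 4, against 0.402, 0.405 and 0 in control and 0, 0.76 and 0.898 at 2 µM. All 3 libraries at 5 µM stood above every other library of the series for this gene, the highest of which was S12 with 2.77. The change was 2.83 ± 0.33 (adjusted p = 5.1e-09). On day 2 Perp had 0.788, 0.56 and 0.265 at 5 µM and 0, 0.366 and 0.167 in control. The increase of the effect between these days (2.44 ± 0.46, adjusted p = 0.00015) was not called by edgeR (adjusted p = 0.22), by DESeq2 (0.13) or with a pseudocount of 0.1 (0.053), settings that weigh these low levels differently.

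Trp53i11, a p53-induced transcript with a poorly known product, was also low. On day 1 it had 4.78, 1.1 and 9.23 scaled CPM at 5 µM, against 0.424, 0.268 and 0.967 in control (1.71 ± 0.43, adjusted p = 0.0053). The highest value was that of S12, and without it alone the change was 1.19 with an adjusted p of 0.071. Without S7 and S12 it was 1.19 (adjusted p = 0.024). On day 4 Trp53i11 had 0.8, 2.08 and 1.4 at 5 µM and was listed at 0 in 2 control libraries and at 0.152 in the other (1.18 ± 0.43, adjusted p = 0.02, and 0.087 without 5 µM replicate 2).

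Of the remaining death genes, Ei24, a membrane protein of the endoplasmic reticulum, rose on days 1 and 4 (0.41 and 0.43) but stood at 80.8, 74.1 and 88.7 scaled CPM at 5 µM and 79.1, 86.9 and 79.5 in control on day 2. Aen, a nuclease of apoptotic cells, rose on day 1 (0.60 ± 0.11, adjusted p = 0.00025) and fell on day 4 (-0.33 ± 0.11, adjusted p = 0.013). Its levels were 42.7, 44.1 and 30.3 scaled CPM at 5 µM and 27.5, 23 and 24.8 in control on day 1, and 75.1, 82.2 and 77 at 5 µM and 100.04, 99.5 and 96.6 in control on day 4, with no overlap on either day. Eda2r, a receptor of the TNF family, rose on day 1 (0.43, adjusted p = 0.026), a call lost without control replicate 2 or 5 µM replicate 1 or 2 (adjusted p = 0.087 to 0.13). The death receptors Fas and Tnfrsf10b, and Pidd1, which assembles a caspase-activating complex, were not called, with changes between -0.94 (Pidd1, day 2) and 0.47 (Fas, day 1). Pidd1 on day 2 was called lower when S7 and S12 were left out (-0.94, adjusted p = 0.021).

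Tigar, a phosphatase that turns glucose toward the pentose phosphate pathway, had 15, 20.4 and 24.1 scaled CPM at 5 µM on day 4, against 8.14, 11.7 and 7.61 in control (1.03 ± 0.20, adjusted p = 4.8e-05). Plk3, a stress-responsive polo-like kinase, had 10.2, 11.1 and 9.22 at 5 µM and 3.87, 5.32 and 4.87 in control (0.98 ± 0.25, adjusted p = 0.0012). In both the lowest 5 µM library lay above the highest control library. Rrm2b, the p53-induced subunit of ribonucleotide reductase that feeds DNA repair, went the other way with 34.8, 26.7 and 28.2 at 5 µM and 63.1, 41.3 and 42.3 in control (-0.67 ± 0.16, adjusted p = 0.00043). Control replicate 1 was its highest library, and the groups did not overlap. Btg2, which slows division, fell by 0.29 on the log2 scale on day 4 (adjusted p = 0.047, 0.053 without S7 and S12, and 0.059 to 0.18 without any 1 control library or 5 µM replicate 1 or 3). The repair genes Polk, a DNA polymerase, and Ercc5, a nuclease of excision repair, and the sugar reductase Dcxr were not called.

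Sesn2 and Ddit4 both restrain mTORC1 and are also targets of other stress factors, ATF4 among them. Sesn2 had 10.2, 8.6 and 6.3 scaled CPM at 5 µM on day 2, against 14.2, 14.9 and 13.7 in control, and 16.5, 21 and 21.5 at 5 µM on day 4, against 12.2, 8.51 and 12 in control. It lay below control on day 2 and above it on day 4 without overlap, with changes of -0.73 ± 0.24 (adjusted p = 0.024) and 0.80 ± 0.24 (adjusted p = 0.0048). The difference between these effects was 1.53 ± 0.34 (adjusted p = 0.00096), while the day 2 call was lost without any control library or without 5 µM replicate 3 (adjusted p = 0.051 to 0.14). Ddit4 rose on day 4 (0.59 ± 0.22, adjusted p = 0.022, and 0.068 and 0.097 without control or 5 µM replicate 3). Of 10 ATF4 genes, 0 rose and 9 fell on day 2, and 3 rose and 4 fell on day 4, beside 10.2% and 13.4% of all genes on day 2 and 27.3% and 28.6% on day 4. For 9 of 10 the effect was higher on day 4 than on day 2 by the test of the difference, as for 12.5% of all genes. Their part in the course of Sesn2 was not tested.

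**Figure D3:**
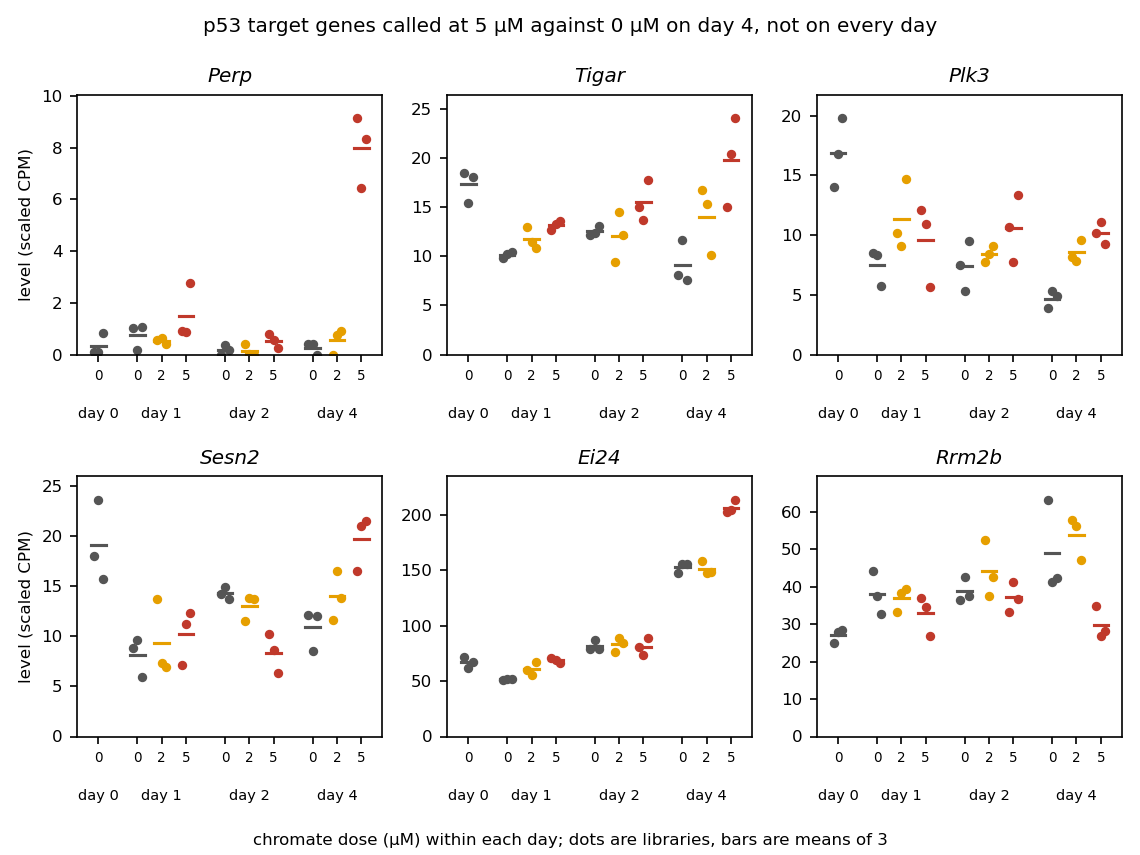
Level in scaled CPM (vertical axis, from 0) of 6 p53 targets called at 5 µM on day 4 but not in one direction on every day, by day and dose in µM, with dots for libraries and bars for means of 3. On day 4 Perp, Tigar, Plk3, Sesn2 and Ei24 are higher at 5 µM than in control and Rrm2b is lower, while on day 2 Sesn2 is lower.

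Gadd45a, which binds PCNA and p38 kinases and halts cells after damage, rose on day 1 (0.32 ± 0.11, adjusted p = 0.047) and fell on day 2 (-0.30 ± 0.11, adjusted p = 0.041). The levels were 88.8, 87.9 and 76.3 scaled CPM at 5 µM and 70.6, 61.4 and 69.9 in control on day 1, and 82.9, 74 and 86.2 at 5 µM and 97.4, 99.5 and 103 in control on day 2. Neither day showed overlap, and the effects differed by -0.62 ± 0.16 (adjusted p = 0.0096). Each day's call was lost without any 1 control library or 5 µM replicate 1 or 2 (adjusted p = 0.061 to 0.20 on day 1 and 0.069 to 0.18 on day 2). In GENCODE vM21, 19.1% of the exonic bases of Gadd45a overlap an antisense transcript and 12.2% of those of Bax another gene on the same strand. How reads were assigned there is not given in the sources used here, so such reads cannot be told apart.

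Gtse1 and Ckap2 differ from the other targets in that both are also read mainly in dividing cells. Gtse1 holds p53 down after damage and binds spindle microtubules, and Ckap2 stabilises microtubules in mitosis. On day 2 Ckap2 had 4.86, 4.84 and 5.29 scaled CPM at 5 µM, against 17.4, 26.7 and 21.4 in control (-1.91 ± 0.25, adjusted p = 3e-07). On day 4 it had 3.53, 2.51 and 3.91 at 5 µM, against 28.6, 13.3 and 19.5 in control (-2.27 ± 0.25, adjusted p = 2.1e-09). The groups were far apart on both days, with no overlap. Gtse1 had 2.93, 6.04 and 2.51 at 5 µM and 12.7, 16 and 15 in control on day 2, and 2.02, 5.17 and 2.34 at 5 µM and 15.7, 8.05 and 7.15 in control on day 4. Its changes were -1.75 ± 0.30 (adjusted p = 3.4e-05) and -1.44 ± 0.30 (adjusted p = 0.00014), again without overlap.

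On day 1 Ckap2 was instead higher, with 22.2, 30.8 and 36.4 scaled CPM at 5 µM, against 15.9, 16.5 and 10.5 in control (1.01 ± 0.25, adjusted p = 0.0049). S12 held the highest value, the change was 0.85 without S7 and S12 (adjusted p = 0.035), and without control replicate 3 it was 0.81 and not called (adjusted p = 0.053). Gtse1 was not called on day 1 (0.09, adjusted p = 0.89). Of 12 division genes, 1 rose and 0 fell on day 1, and 0 rose and 12 fell on each of days 2 and 4. Their medians were -0.03, -2.50 and -2.57. Of all tested genes, 4.29%, 10.2% and 27.3% rose on days 1, 2 and 4, and 9.41%, 13.4% and 28.6% fell. On day 1 the division genes summed to 643 scaled CPM in S12. The other 5 µM libraries had 381 and 407, and control 412 to 544. In bulk RNA, fewer dividing cells and less of each transcript per cell cannot be told apart.

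**Figure D4:**
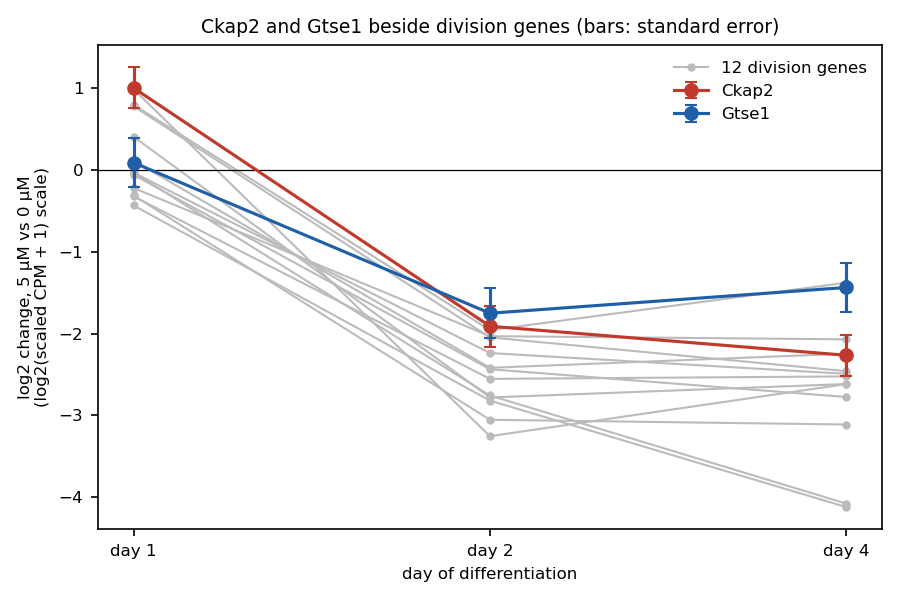
Log2 change at 5 µM against 0 µM (vertical axis) on days 1, 2 and 4 (horizontal axis) for Ckap2 and Gtse1, with bars for the standard error, and for 12 division genes (grey). Ckap2 starts at 1.01 and Gtse1 at 0.09 on day 1, and both lie at -1.44 or lower on days 2 and 4, where the grey lines lie between -4.12 and -1.38.

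The rise on day 1 stood against a control that had itself moved. In control cells on day 1, 9 of 30 targets were higher and 15 lower than on day 0, beside 25.4% and 22.7% of all genes (48.1% called), with a median of -0.26 against 0.04 over all tested genes. Mdm2 had 63.1, 55.4 and 71.7 scaled CPM in the day 1 control, against 87, 102 and 113 on day 0 (-0.66, adjusted p = 1e-06). Ccng1 changed by -0.59 (adjusted p = 5.3e-06) and Bax by -0.53 (adjusted p = 0.0035). In all, 8 targets (Mdm2, Ccng1, Bax, Phlda3, Aen, Ei24, Ckap2 and Trp53i11) were higher at 5 µM than in control on day 1 and lower in that control than on day 0. Of all genes, 1.36% met both conditions. The 2 comparisons share the day 1 control, so this count is a description.

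Cells at 5 µM on day 1 were therefore also set against day 0 directly, a comparison added after the data were seen. Here 12 targets were higher and 5 lower, beside 25.8% and 24.1% of all genes (49.9% called). The counts were 10 and 5 without S7 and S12, with Bbc3, Perp and Plk3 no longer called and Pidd1 called lower. Mdm2 had 105, 114 and 90.3 scaled CPM at 5 µM on day 1 and 87, 102 and 113 on day 0, a difference of 0.03 with a 95% interval of -0.17 to 0.24 (adjusted p = 0.81). For Ccng1 the difference was 0.07 (-0.13 to 0.27, adjusted p = 0.58) and for Bax -0.01 (-0.32 to 0.29, adjusted p = 0.95), and all 3 genes had overlapping groups. These intervals bound the difference but do not show that the levels were equal, and the signs turn with single libraries. Trp53inp1 was higher, with 113, 116 and 110.1 at 5 µM on day 1, against 11.5, 13.3 and 12.5 on day 0 (3.09 ± 0.13, adjusted p = 9.8e-20). The day 1 control already held 63.3, 49.4 and 49.7 for this gene. Gadd45a and Eda2r were also higher than on day 0. Gadd45a averaged 84.3 at 5 µM, 67.3 in the day 1 control and 10.3 on day 0, and Eda2r 152, 111 and 33.0. Aen and Ckap2 were lower at 5 µM on day 1 than on day 0 (-0.72 and -1.06, adjusted p = 2.6e-06 and 0.0006). Phlda3 was higher than on day 0, with overlapping groups. That call was lost without day 0 replicate 1 or 3 or 5 µM replicate 1 or 2 (adjusted p = 0.11 to 0.16).

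**Figure D5:**
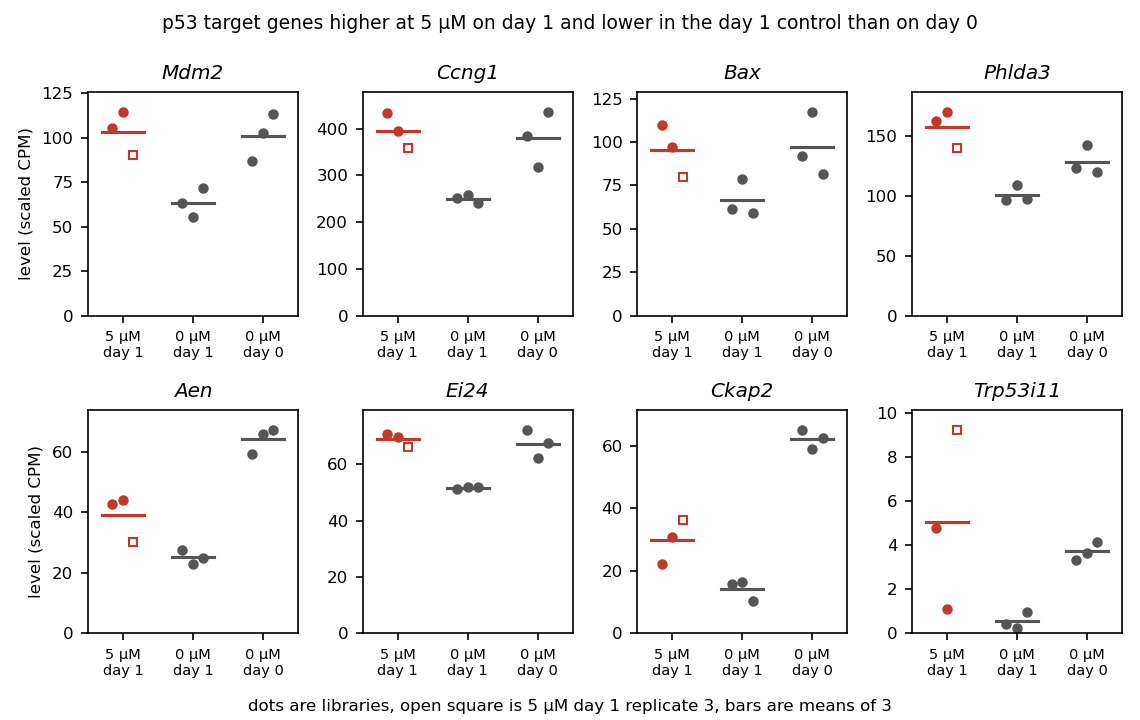
Level in scaled CPM (vertical axis, from 0) of the 8 p53 targets that were higher at 5 µM than in control on day 1 and lower in that control than on day 0, for 5 µM on day 1, 0 µM on day 1 and 0 µM on day 0, with dots for libraries, an open square for S12 and bars for means of 3. For Mdm2, Ccng1, Bax, Phlda3, Ei24 and Trp53i11 the libraries at 5 µM overlap those of day 0, and for Aen and Ckap2 they lie below.

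On days 2 and 4 of the control series, 10 and 13 targets were higher and 9 and 11 lower than on day 0, beside 27.6% and 30.3% higher and 24.3% and 29.5% lower among all genes (51.9% and 59.8% called). Gadd45a had 161, 152 and 154 scaled CPM in the day 4 control, against 9.54, 11.6 and 9.74 on day 0, and its changes on days 1, 2 and 4 were 2.60, 3.17 and 3.80. Eda2r had 415, 361 and 423 in the day 4 control and 23.6, 29.9 and 45.6 on day 0, with changes of 1.77, 2.62 and 3.61. Each of these genes was higher in every day 4 control library than in any day 0 library.

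Pmaip1 and Trp53inp1 rose in control too, by 2.24 and 1.94 on day 4. At 5 µM on day 4, Pmaip1 stood below and Trp53inp1 above a control level that was itself higher than on day 0. Gtse1, Ckap2, Plk3 and Trp53i11 fell in control on all 3 days, with Gtse1 at -2.11, -2.08 and -2.61 and Plk3 at -1.08, -1.10 and -1.65. Aen fell on day 1 (-1.32) and was higher than day 0 on day 4 (0.62). All these calls had adjusted p below 0.05 in limma.

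At 2 µM few targets were called. On day 1, 1 rose and 1 fell, beside 0.518% and 1.48% of all genes (1.99% called), with a median of 0.19. Trp53inp1 had 89.8, 83 and 85.8 scaled CPM at 2 µM on day 1, against 63.3, 49.4 and 49.7 in control, without overlap (0.67 ± 0.13, adjusted p = 0.0029, and 0.64 with 0.022 without S7 and S12). Pmaip1 had 65.8, 77.9 and 77.9 at 2 µM, against 98, 109 and 101 in control, also without overlap (-0.47 ± 0.12, adjusted p = 0.023). The call of Pmaip1 was lost without S7 and S12 (-0.39, adjusted p = 0.15) and without S7 or any control library alone (adjusted p = 0.054 to 0.19).

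On day 2 limma called 0 of 30 at 2 µM, beside 0.51% of all genes, with 1 target at an unadjusted p below 0.05 and 0 called by edgeR and by DESeq2. On day 4, 1 rose and 1 fell, beside 5.11% and 3.74% of all genes (8.84% called). Phlda3 had 200.4, 215 and 233 scaled CPM at 2 µM on day 4 and 145, 202 and 144 in control (0.41, adjusted p = 0.024). Ckap2 had 13.5, 6.91 and 12 at 2 µM and 28.6, 13.3 and 19.5 in control (-0.85, adjusted p = 0.027). The groups overlapped for both genes. Both calls were lost without control replicate 1, without control replicate 3 or without 2 µM replicate 2, and that of Phlda3 also without 2 µM replicate 3 (adjusted p = 0.059 to 0.22). The count of targets called was 0 without control replicate 1, and 1 without control replicate 3 or 2 µM replicate 2.

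Set directly against 2 µM, 5 µM gave 4 higher and 0 lower targets on day 1, beside 1.29% and 4.25% of all genes (5.54% called). Over 0, 2 and 5 µM, Mdm2 averaged 63.4 ± 8.18, 78.8 ± 3.9 and 103 ± 12.2 scaled CPM on day 1 (SD, n = 3 each). The difference of 5 µM from 2 µM was 0.38 ± 0.10 for Mdm2 (adjusted p = 0.017), 0.33 for Ccng1 (adjusted p = 0.042), 0.51 for Zmat3 (adjusted p = 0.019) and 0.94 for Ckap2 (adjusted p = 0.02). Trp53inp1 differed by 0.38 (95% interval 0.12 to 0.65, adjusted p = 0.082) and Bax by 0.11 (-0.20 to 0.41, adjusted p = 0.77), which did not pass. The count fell to 0 without 5 µM replicate 2, to 1 without S7 alone and to 2 without 5 µM replicate 1. Without S7 and S12 together it was 4, with Aen in place of Ckap2, and Mdm2 differed by 0.47 (adjusted p = 0.018).

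On day 2, 2 targets were higher and 4 lower at 5 µM than at 2 µM, beside 4.64% and 8.13% of all genes (12.8% called). Plk2 had 271, 247 and 222 scaled CPM at 5 µM and 146, 157 and 141 at 2 µM (0.73, adjusted p = 5.7e-07), without overlap. Trp53inp1 was the other higher gene (0.68), and Ckap2, Gtse1, Pmaip1 and Gadd45a were lower by -1.68, -1.26, -0.66 and -0.45. On day 4, 7 were higher and 6 lower, beside 22.8% and 24.8% of all genes (47.6% called). Perp (2.57), Trp53inp1 (1.35) and Ddit4 (0.67) led the higher genes, and Ckap2 (-1.42), Pmaip1 (-1.13) and Rrm2b (-0.83) the lower ones. The call of Ddit4 was lost without 2 µM replicate 1 (adjusted p = 0.083) or 5 µM replicate 3 (0.064).

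The effect of 5 µM itself changed between days for 14 gene and day pairs. Between days 1 and 2 it rose for 1 target (Plk2) and fell for 6 (Ccng1, Gadd45a, Aen, Gtse1, Ei24 and Ckap2), beside 3.04% and 2.76% of all genes (5.8% called). Without S7 and S12 the effect on Mdm2 was also smaller on day 2 than on day 1 (-0.49, adjusted p = 0.034), against -0.40 (adjusted p = 0.095) with all 30 libraries. Between days 2 and 4 it rose for 4 (Trp53inp1, Sesn2, Perp and Ei24) and fell for 3 (Pmaip1, Btg2 and Rrm2b), beside 12.5% and 11.2% (23.7% called), and without S7 and S12 Ddit4 was gained (0.81, adjusted p = 0.024) and Btg2 lost (adjusted p = 0.051). At 2 µM the change between days 2 and 4 was called for 0 of 30 by limma, edgeR and DESeq2, beside 0.263% of all genes, with 1 target at an unadjusted p below 0.05.

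Other genes of the pathway were read for comparison. Trp53 itself, the gene of p53, had 101, 92.8 and 90.4 scaled CPM at 5 µM on day 4, against 51.7, 65.5 and 64.8 in control (0.64, adjusted p = 2e-06). On day 0 it had 130, 135 and 136, above all of these. On day 1 its groups overlapped, with 87.4, 106 and 93.4 at 5 µM and 85.9, 98.6 and 95.3 in control. Of 25 names of p53 regulators, 21 were tested. Of these, 2 rose and 2 fell on day 1, 4 and 5 on day 2, and 6 and 6 on day 4. Of all genes, 4.29%, 10.2% and 27.3% rose on these days, and 9.41%, 13.4% and 28.6% fell. The day 4 counts of the regulators lay near those shares. Sirt1, a deacetylase of p53, rose by 1.86 on day 4 and Usp7, which removes ubiquitin from MDM2 and p53, by 1.16. Prkdc, a kinase of the response to DNA breaks, changed by -1.81 on day 4.

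Of 30 further p53 targets, 7 rose and 3 fell on day 1, 7 rose and 5 fell on day 2, and 12 rose and 10 fell on day 4, with medians of 0.15, 0.17 and 0.18. Over all genes 4.29%, 10.2% and 27.3% rose and 9.41%, 13.4% and 28.6% fell on these days. Cdkn1a, the cell cycle inhibitor p21, had 1677, 1847 and 1749 scaled CPM at 5 µM on day 4, against 2645, 2805 and 3245 in control. It was lower at 5 µM than in the control of the same day on each day (-0.30, -0.55 and -0.72, adjusted p = 0.019, 1.3e-05 and 2.6e-08). On day 0 Cdkn1a had 151, 157 and 137, below all of these day 4 libraries, at 5 µM as in control. Gdf15, a secreted stress cytokine, had 19.1, 23.6 and 23.2 at 5 µM on day 4 and 6.48, 4.96 and 6.17 in control (1.74, adjusted p = 2.5e-06). Slc19a2, a thiamine transporter, rose on each day (1.12, 0.67 and 1.83). The muscle regulator Myog had 220.5, 263 and 216 scaled CPM at 5 µM on day 4, against 1111, 1249 and 1096 in control (-2.30, adjusted p = 1.1e-16). Of the other muscle line markers, Myod1, Des, Cdh15 and Pax7 were also lower there, and Myf5 was higher (2.03, adjusted p = 4.7e-16). The part of muscle differentiation in the values of the targets was not tested.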

How the data were processed

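Total RNA was taken with TRIzol and sequenced from Illumina TruSeq RNA libraries, per the labels' protocols. The deposited values are a signal that the authors name CPM, 1 value per gene and library. Library sums ranged over 892246 to 1079916, which differ between libraries, so the values carry a further scaling and are called scaled CPM. Dividing by 1 fitted step per library gave whole reads for 100% of values (within 0.02 of a read), a read being worth 0.038 to 0.0584 scaled CPM. Aligner, genome build, strand setting and scaling were not given in the sources used here.

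Genes reaching 1 scaled CPM in 3 or more of the 30 libraries were taken as log2(scaled CPM + 1) and fitted with limma 3.58.1 in R 4.3.3, with 1 mean per group, a mean-variance trend and 20 residual degrees of freedom. P-values were adjusted by the Benjamini-Hochberg method over all 12946 genes with a threshold of 0.05. Verbs of change in the text refer to genes past it. Standard errors, intervals and tests are limma's. The sensitivity section gives the effect of other filters, pseudocounts, scalings, fits and left-out libraries, and of edgeR 4.0.16 (quasi-likelihood) and DESeq2 1.42.0 on the recovered reads. For 5 µM against 0 µM edgeR called 13.2%, 22.5% and 52.6% of all genes on days 1, 2 and 4. The fits were tested on simulated data.

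The 30 members, the 8 other gene lists and the tests were chosen with earlier results of these data known. Named were Mdm2, Ccng1, Bax and Trp53inp1 always, the 5 largest called rises and 4 largest called falls at 5 µM on each day with a mean of at least 5 scaled CPM in the higher group, 3 and 3 in other comparisons, and every called change of effect. Other members were named after their values were seen. Promoter sequences are RefSeq's, with 24 of 30 members matched. Of 900 member values, 10 were at 0, in 4 genes.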

Additional observations from a re-analysis of the deposited data

Results flagged for a closer look

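By the test of the difference itself in limma, the effect of 5 µM against control differed for 7 targets between days 1 and 2. It also differed for 7 targets between days 2 and 4. Of all tested genes, 5.8% were called between days 1 and 2 and 23.7% between days 2 and 4. The count of targets between days 2 and 4 lay near that share of all genes. From day 1 to day 2 the log2 effect changed by -2.92 for Ckap2, -1.84 for Gtse1, -0.79 for Aen, -0.62 for Gadd45a, -0.52 for Ccng1, -0.42 for Ei24 and 0.62 for Plk2. From day 2 to day 4 it changed by 2.44 for Perp, 1.53 for Sesn2, 0.80 for Trp53inp1, 0.45 for Ei24, -0.47 for Btg2, -0.57 for Pmaip1 and -0.61 for Rrm2b. With single libraries left out, adjusted p passed 0.05 for Ccng1 (at most 0.058), Ei24 between days 1 and 2 (0.12), Btg2 (0.12) and Rrm2b (0.18). Without S7 and S12, Btg2 was lost (adjusted p = 0.051), while Mdm2 between days 1 and 2 (-0.49) and Ddit4 between days 2 and 4 (0.81) were gained.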

How the results depend on the processing

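The number of targets called at 5 µM against control stayed within 1.5 times the reported one under every other filter, pseudocount, scaling, variance estimate and tool, and the comparisons that moved were those with few calls. For 2 µM on day 1 (2 called) the count was 1 with no filter, with only the compared groups or without S7 and S12, and 4 by DESeq2. For 2 µM on day 4 (2 called) it was 0 with no filter, 4 with a mean of at least 5 scaled CPM, with recovered reads per library total, with robust variance or without S7 and S12, and 1 with only the compared groups, by edgeR or by edgeR with the replicate block. For 5 µM against 2 µM on day 1 (4 called) it was 2 with no filter and 0 with only the compared groups. With up to 3 mismatches, 7 promoters in place of 3 held a full site. Leaving out single libraries gave 10 to 13, 6 to 9 and 16 to 19 calls for 5 µM against 0 µM on days 1, 2 and 4, 1 to 3, 0 to 0 and 0 to 3 for 2 µM, 0 to 4, 6 to 8 and 11 to 13 for 5 µM against 2 µM, 21 to 23, 17 to 19 and 21 to 24 for control, 5 to 8 and 5 to 8 for the changes of the 5 µM effect, 0 to 0 for that of 2 µM, and 14 to 16 for 5 µM on day 1 against day 0. Replicate numbers did not pair the samples (correlations of deviations from -0.23 to 0.13), and with the replicate block limma called 14, 10 and 18 targets at 5 µM on days 1, 2 and 4. Signs turned for values near 0: Bax at 5 µM on day 4 was -0.043 without 5 µM replicate 2 and at most 0.274. For 5 µM on day 1 against day 0, single libraries gave -0.068 to 0.127 for Mdm2, -0.05 to 0.176 for Ccng1 and -0.129 to 0.13 for Bax. There Mdm2 was -0.068 without day 0 replicate 1 and -0.042 without 5 µM replicate 2, Ccng1 was -0.05 without day 0 replicate 2, and Bax was 0.012 with recovered reads per library total, 0.011 by edgeR, 0.023 by edgeR with the replicate block, 0.108 without S12 or without S7 and S12, and 0.13 without day 0 replicate 2. Without S7 and S12, Trp53i11 and Pidd1 were gained at 5 µM on day 2, Eda2r was gained and Btg2 lost on day 4, Zmat3 and Plk3 were gained at 2 µM on day 4, Mdm2 and Trp53i11 were gained for 5 µM against 2 µM on days 2 and 4, and Pidd1 was gained lower in the day 4 control. Of all genes, no filter, which tests more genes, gave 8.11%, 14.1% and 37.0% called at 5 µM on days 1, 2 and 4, 0.98%, 0.196% and 5.47% at 2 µM, 3.04%, 7.43% and 31.0% for 5 µM against 2 µM, 30.6%, 33.0% and 39.4% for control, 3.32% and 14.6% for the changes of effect, and 31.8% for 5 µM on day 1 against day 0. Only the compared groups gave 36.0% at 5 µM on day 2, 0.387% and 5.36% at 2 µM on days 1 and 2, 0.994% and 20.6% for 5 µM against 2 µM on days 1 and 2, and 0.657% for the change of the 2 µM effect. The other percentages that moved were, for 2 µM, 0.905% (day 1) and 1.01% (day 2) without S7 and S12, 3.55% (day 1) and 1.4% (day 2) by DESeq2, 1.15% with a pseudocount of 5 and 0.846% with a mean of at least 5 (day 2), for its change of effect 0.438%, 0.499% and 0.718% with that mean, without both libraries and by DESeq2, and for 5 µM against 2 µM on day 1 3.17% without both libraries. Causes were not tested. Recovered reads per library total moved the median of all genes by -0.103 in control on day 4 and by less than 0.1 elsewhere. Members with a mean under 5 scaled CPM, of which there are 5, are the least precise.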

Other observations

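Sestrin 1 (Sesn1), a relative of Sesn2, was not called at either dose on any day. On day 4 it had 60.3, 69.3 and 58.0 scaled CPM at 5 µM, against 60.9, 69.2 and 42.3 in control, and the groups overlapped. In control cells it rose on days 1, 2 and 4 against day 0 by 1.44, 0.75 and 1.14 on the log2 scale (adjusted p = 8.2e-11, 2.1e-05 and 7.4e-09, limma). Tnfrsf10b and Polk fell in control on all 3 days, by -0.96 and -1.11 on day 4.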
